A study of Homo sapiens with 12 samples.

Results

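The responses to FoxO3 and to FoxO1 were set directly against each other within each of 2 cell lines. The comparison used the 8 arrays labelled FoxO1 or FoxO3, with vehicle and with 4OHT, out of 12 arrays in the series; the other 4 came from empty vector (EV) cells. RCC4 and UMRC2 are established lines from human kidney cancers without a working VHL tumour suppressor, and the series' design text calls them low in FoxO1 and FoxO3 of their own. At the RNA level the brightest FOXO3 probe set stood at log2 10.38 and 11.65 in vehicle-treated EV cells of RCC4 and UMRC2, well above the array median of 6.67, while the brightest FOXO1 probe set of each line stood at 6.46 in RCC4 and 7.65 in UMRC2. They stably carried FoxO1(TA)ERT2 or FoxO3(TA)ERT2, in which 3 serine or threonine residues that AKT phosphorylates are alanine and which end in the T2-modified hormone-binding part of the estrogen receptor (ERT2). The EV construct is given as ERT2 alone, all lines were kept under puromycin, and whether a line was a pool or a clone is not given in the sources used here. 4-hydroxytamoxifen (4OHT) releases such fusions into the nucleus. Cells received 100 nM 4OHT or ethanol as vehicle for 12 h, and RNA was hybridised to U133 Plus 2.0 arrays. Each combination of line, construct and treatment has 1 array. The lines were therefore the replicates (n = 2 for each construct), and the number of arrays limits the precision. A p-value sets a difference against the spread between the lines, with the EV responses included, and against spread borrowed from other genes. It does not measure spread between repeat cultures.

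FoxO1 and FoxO3 are forkhead transcription factors that bind closely related DNA motifs. Insulin and growth factor signalling through PI3K and AKT phosphorylates them and keeps them in the cytoplasm, and when the pathway is quiet they enter the nucleus and induce genes of cell cycle arrest, stress defence, autophagy and feedback on insulin signalling. In kidney cancer the FoxO factors are regarded as growth suppressors. The 12 h time was chosen, per the series' design text, as one at which known targets had changed and arrest or death was not yet seen. A response here is the change in log2 level from vehicle to 4OHT in the same engineered line, and the difference is the FoxO3 response minus the FoxO1 response, averaged over the lines unless a line is named.

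FoxO3 cells of both lines held more of the fusion transcript than FoxO1 cells. It was read through ESR1, the estrogen receptor gene, where 5 of 9 probe sets exceeded the vehicle-treated EV array by log2 2 or more in every vehicle-treated FoxO array. Their median log2 level with vehicle was 9.22 for RCC4 FoxO1 and 12.49 for RCC4 FoxO3. For UMRC2 FoxO1 it was 12.29 and for UMRC2 FoxO3 13.23, and for EV cells 5.28 (RCC4) and 4.63 (UMRC2). The EV levels lay below the array median of 6.67, so these probe sets gave no clear reading of ERT2 in EV cells. The cause was not tested. Probe set by probe set, FoxO3 cells exceeded FoxO1 cells by a median of 3.2 (9.16-fold, range 1.92 to 3.76) in RCC4 and by 1.06 (2.08-fold, range 0.86 to 1.24) in UMRC2. The order of the 4 lines was thus RCC4 FoxO1, UMRC2 FoxO1, RCC4 FoxO3 and UMRC2 FoxO3, with the middle pair 0.4 apart by the same probe-wise median. Within each line the isoform and the fusion level moved together, so that they cannot be told apart in any difference below. The FOXO1 and FOXO3 probe sets gave no reading of the fusions, since FoxO3 cells without 4OHT differed from FoxO1 cells by -0.30 and 0.01 at FOXO3 and by 0.59 and 0.30 at FOXO1.

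**Figure D1:**
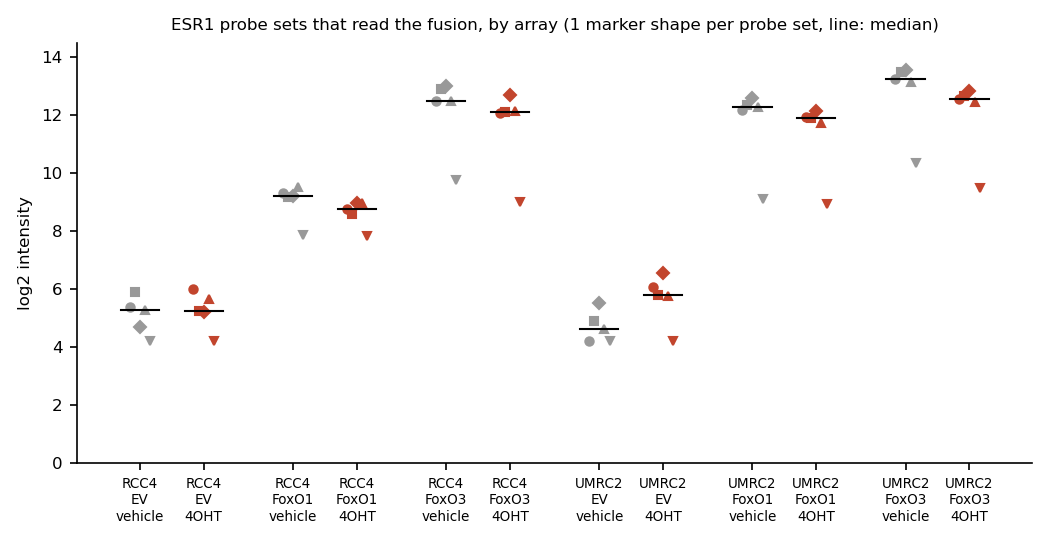
Log2 intensity of the 5 ESR1 probe sets that read the fusion in each of the 12 arrays (grey, vehicle; red, 4OHT), with 1 marker shape per probe set and the median as a line. The median of the vehicle arrays ranged from 9.22 in RCC4 FoxO1 to 13.23 in UMRC2 FoxO3, and the EV arrays lay far below all 4 fusion lines.

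Of 8 renal epithelial markers, PAX8, KRT8, KRT18, CDH2 and VIM had log2 levels of at least 10.55 in all 8 arrays, and PAX2, CDH6 and LRP2 had medians from 7.7 to 8.61. CD14 and CDH5, which define monocytes and endothelium, were at the floor of log2 4.2 in all 8, and PTPRC, the common leukocyte antigen, had a median of 4.89. Some markers of other cell types were above the floor in all 8, among them CD3E, PECAM1, DCN, ACTA2 and SERPINA1 with medians from 7.23 to 8.88. The deposited median intensity of the RCC4 FoxO3 array with 4OHT was 74.6, against 121.2 to 138.7 in the other 5 RCC4 arrays and 71.1 to 88.7 in UMRC2. Its vehicle array had 129.6, so the 2 arrays of the RCC4 FoxO3 response differed in deposited level more than those of any other FoxO response. Its part in the results was not tested beyond the scalings tried and the fit that left out its pair of arrays.

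Large responses were more numerous to FoxO3 than to FoxO1 in both lines, in cells that also held more fusion transcript. Of 14283 genes tested, 3153 in RCC4 and 2800 in UMRC2 had a FoxO3 response of at least log2 1 in size, against 1145 and 1257 for FoxO1 and 741 and 793 for EV. At an adjusted p under 0.05 in limma, the FoxO3 response exceeded the FoxO1 response at 310 genes (2.17%) and lay below it at 520 (3.64%), together 830 (5.81%), with 3107 at an unadjusted p under 0.05. All 830 had the same sign in both lines. Called genes are those that passed this test, and "higher" and "lower" refer to the FoxO3 response relative to the FoxO1 response. Among the 310 higher genes the median response to FoxO1 was 0.11 in RCC4 and 0.21 in UMRC2, and that to FoxO3 was 1.51 and 1.42. Among the 520 lower genes it was -0.12 and -0.26 for FoxO1 and -1.32 and -1.32 for FoxO3. These medians describe genes that the same values chose. EV medians of both groups were between -0.017 and 0.014. Without 4OHT, FoxO3 and FoxO1 cells were within log2 1 of each other in both lines at 296 of the 310 and 518 of the 520, against 91.4% of all genes tested.

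The number of called genes depended on single pairs of arrays. All 830 kept their sign when any FoxO pair was left out, which their choice for like differences in both lines largely fixes. The count of calls was 37 without the RCC4 FoxO1 pair, 262 without the UMRC2 FoxO1 pair, 530 without the RCC4 FoxO3 pair and 1025 without the UMRC2 FoxO3 pair. It was 960 with no EV pair in the fit, 46 when the deposited values were used unscaled and 147 when all probe sets of a gene were averaged. With no filter on dim probe sets or with a constant prior variance no gene passed, with 3131 and 2494 at an unadjusted p under 0.05, so each call below rests on these 2 choices. By size alone, the difference was at least log2 1 in both lines for 378 genes (2.65%) on the higher side and 416 (2.91%) on the lower side. A further 234 genes had differences of that size with opposite signs in the lines. Over all genes tested the differences in RCC4 and UMRC2 had Pearson's r = 0.31 (n = 14283 genes, which are not independent, and with no array shared between the lines).

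**Figure D2:**
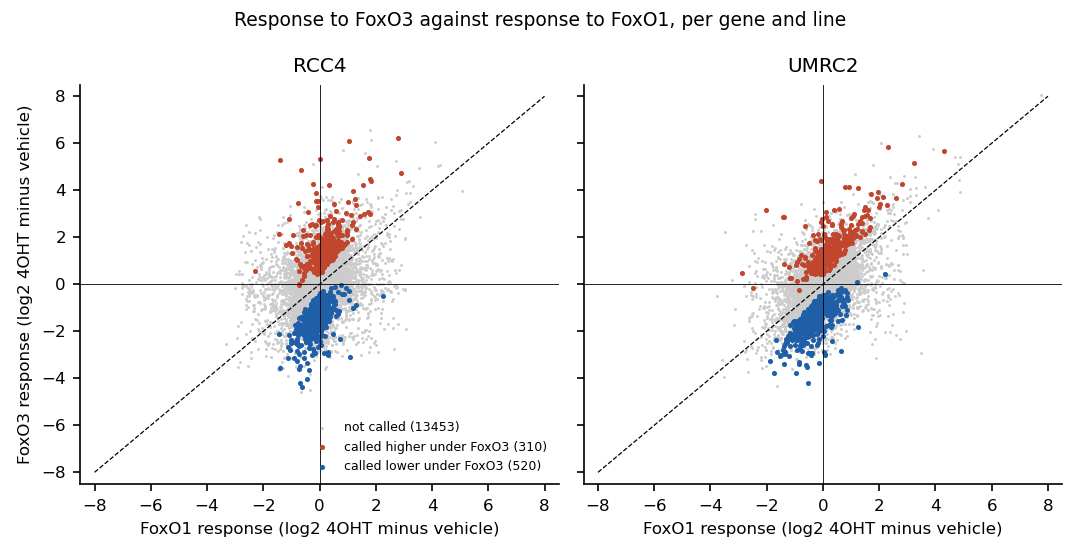
FoxO3 response against FoxO1 response for each of 14283 genes in RCC4 and UMRC2 (both axes log2, dashed line: equal responses), with the 310 higher genes in red and the 520 lower genes in blue. Called genes lie off the dashed line mostly along the FoxO3 axis, and the correlation of the responses over genes was 0.332 in RCC4 and 0.487 in UMRC2.

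Mitosis genes stood lower after FoxO3 activation, and their FoxO1 responses were near 0. Of 41 tested genes for mitotic cyclins, kinases and the anaphase-promoting ubiquitin ligase, 25 were lower and 0 higher, and their median difference was -1.02, against -0.056 for all genes tested. Of 37 genes for spindle motors, the spindle midzone and cytokinesis, 22 were lower and 0 higher (median -0.93), and of 39 kinetochore and centromere genes 11 were lower and 0 higher (median -0.70). The 3 lists hold 117 tested genes in all, of which 58 (49.6%) were lower, against 3.64% of all genes. Their median response was 0.01 in RCC4 FoxO1 and -0.15 in UMRC2 FoxO1, and -0.91 and -0.96 in the FoxO3 cells of the same lines. A response of -0.5 or lower was seen for 2 and 13 of the 117 under FoxO1 and for 93 and 87 under FoxO3. Of the 58 called genes, 53 had FoxO1 responses under 0.5 in size in both lines, as did 60.6% of all 520 lower genes and 58.3% of all genes tested. In bulk RNA, fewer cells in mitosis and less of these transcripts per cell cannot be told apart.

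CDC20, which activates the anaphase-promoting complex, stood at log2 levels of 13.1 with vehicle and 13.16 with 4OHT in RCC4 FoxO1, 13.16 and 10.96 in RCC4 FoxO3, 12.48 and 12.31 in UMRC2 FoxO1, and 12.48 and 9.98 in UMRC2 FoxO3. The FoxO3 arrays with 4OHT were the low ones, and the other 6 arrays did not overlap with them. Its difference was -2.29 ± 0.16 (SE from limma, adjusted p = 0.00562). CCNA2, cyclin A2, gave 12.03 and 11.92, 12.11 and 9.96, 11.84 and 11.49, and 11.81 and 9.64 in the same order, and its difference was -1.93 ± 0.16. CCNB1, cyclin B1, went from 12.94 to 11.08 in RCC4 FoxO3 and from 12.86 to 11.42 in UMRC2 FoxO3, while its FoxO1 responses were 0.03 and -0.03. PLK1, the polo-like kinase of mitotic entry, responded by 0.10 and 0.24 to FoxO1 and by -1.47 and -1.53 to FoxO3 in RCC4 and UMRC2. Each of these genes was low only in the FoxO3 arrays with 4OHT, by values that did not overlap with the other 6 arrays. KIF20A, the kinesin of the spindle midzone (-2.11), KIF2C, which depolymerises microtubules at centromeres (-1.70), TACC3, a spindle stabiliser (-1.70), CDCA8, the borealin subunit of the chromosomal passenger complex (-1.79), and ESPL1, the separase that cuts cohesin (-1.69), were lower as well. CDC16 and CDC23, scaffold subunits of the anaphase-promoting complex, differed by 0.09 and 0.17 and did not pass.

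The median of the mitotic cyclin and kinase list lay between -0.99 and -1.06 with any 1 FoxO pair left out, and at -1.21 with the values as deposited, where the median of all genes was -0.25. The number of its members called lower was 4 without the RCC4 FoxO1 pair, 15 without the UMRC2 FoxO1 pair and 1 with the values as deposited. For the spindle list these counts were 3, 9 and 1, and for the kinetochore list 1, 5 and 0. Counts of called members in the lists that follow are read against 2.17% higher and 3.64% lower among all genes.

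The promoters of these genes often held the CHR motif, the site by which the DREAM and MuvB complexes hold mitotic genes down outside the late cell cycle. Windows from 250 bases before to 50 after the start site were taken from RefSeq (GRCh38.p14), with the first window listed for each gene, and 11454 of the 14283 genes had a window. TTTGAA, on either strand, was present in 32 of 49 windows (65.3%) of called mitosis genes, in 55.4% of windows over all tested members of the 3 lists, in 18.2% of windows of all lower genes, in 10.2% of windows of higher genes and in 10.5% of windows of all genes tested. Among windows with a match, 19 of those 32 (59.4%) and 208 of 1205 in all genes (17.3%) had it within the last 60 bases before the start. CCAAT, the NF-Y motif, was in 73.5% of windows of the called mitosis genes, in 36.5% of all tested genes and in 35.7% of all 27305 windows in the table, of which 15.4% held TTTGAA. The windows of CCNA2 and CCNB1 held CCAAT but not TTTGAA. The lists overlap with what is known of CHR genes, so these shares describe the members and do not test them. The last 120 bases before the start of 6 lower genes are shown 5′ to 3′ on the gene's strand, with TTTGAA in capitals, since these members were called lower and their match lies close to the start. They lie at chr1:43358861-43358980 (plus strand) for CDC20, chr1:37692396-37692515 (plus) for CDCA8, chr15:59105026-59105145 (plus) for CCNB2, chr16:23678769-23678888 (plus) for PLK1, chr12:53268179-53268298 (plus) for ESPL1 and chr15:90994536-90994655 (minus) for PRC1, a microtubule bundler of the spindle midzone. CCNB2, cyclin B2, differed by -0.79 and PRC1 by -1.07.
CDC20: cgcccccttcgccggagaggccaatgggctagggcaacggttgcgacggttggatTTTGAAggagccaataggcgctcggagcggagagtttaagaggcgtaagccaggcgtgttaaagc
CDCA8: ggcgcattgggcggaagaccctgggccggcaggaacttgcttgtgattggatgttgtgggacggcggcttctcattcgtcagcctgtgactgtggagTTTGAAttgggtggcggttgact
CCNB2: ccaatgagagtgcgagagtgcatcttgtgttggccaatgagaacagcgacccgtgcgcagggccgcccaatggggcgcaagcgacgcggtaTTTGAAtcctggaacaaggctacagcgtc
PLK1: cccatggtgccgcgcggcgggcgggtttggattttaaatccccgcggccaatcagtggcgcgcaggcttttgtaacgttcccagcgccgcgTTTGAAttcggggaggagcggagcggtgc
ESPL1: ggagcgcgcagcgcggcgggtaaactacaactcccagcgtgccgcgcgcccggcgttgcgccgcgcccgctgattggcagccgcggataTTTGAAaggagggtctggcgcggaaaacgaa
PRC1: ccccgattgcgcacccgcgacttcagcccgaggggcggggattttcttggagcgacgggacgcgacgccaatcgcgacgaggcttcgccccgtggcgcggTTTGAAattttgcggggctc
The matches begin at -65, -23, -29, -29, -31 and -20 relative to the start site in the order listed.

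Genes of DNA replication and their regulators were lower under FoxO3 too, with a FoxO1 response of their own. Of 57 G1/S and replication genes 18 were lower (31.6%) and 0 higher (median -0.73), with 2, 6 and 11 lower on leaving out the RCC4 FoxO1, the UMRC2 FoxO1 and the RCC4 FoxO3 pair. The median responses were -0.31 and -0.63 to FoxO1 and -1.14 and -1.28 to FoxO3 in RCC4 and UMRC2. RRM2, the small subunit of ribonucleotide reductase, stood at 12.94 with vehicle and 12.71 with 4OHT in RCC4 FoxO1, 12.87 and 10.73 in RCC4 FoxO3, 12.96 and 12.51 in UMRC2 FoxO1, and 12.95 and 10.02 in UMRC2 FoxO3. Both FoxO3 arrays with 4OHT lay well below the other 6, and its difference was -2.20 ± 0.19 (adjusted p = 0.00614). ORC1, of the origin recognition complex (-1.83), CDT1, which loads the replicative helicase (-1.79), GINS1 (-1.62) and CDK4, the G1 kinase partner of cyclin D (-1.49), were also lower. MCM2, a helicase subunit, responded by -0.66 and -0.87 to FoxO1 and by -1.72 and -2.27 to FoxO3 (difference -1.23).

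Of 20 cell cycle transcription factors and MuvB subunits, 6 were lower (30%) and 0 higher (median -0.61), with 0 and 2 lower without the RCC4 FoxO1 and the UMRC2 FoxO1 pair. E2F8, an atypical E2F that represses transcription, gave 8.95 and 8.74, 8.71 and 5.83, 9.16 and 8.3, and 9.34 and 5.94 with vehicle and 4OHT in RCC4 FoxO1, RCC4 FoxO3, UMRC2 FoxO1 and UMRC2 FoxO3. It was low in the FoxO3 arrays with 4OHT, which did not overlap with the others, and its difference was -2.60 ± 0.28 (adjusted p = 0.00863). FOXM1, the forkhead activator of mitotic genes, was the 1 called member of the forkhead family and differed by -1.10, with FoxO1 responses of 0.07 and 0.19 and FoxO3 responses of -0.98 and -0.95. MYBL2, a partner of MuvB, did not pass (-1.34, adjusted p = 0.201), and its differences were -0.23 in RCC4 and -2.45 in UMRC2. MYBL1 (-1.81) had 2 other bright probe sets of the opposite sign. Of 41 genes of homologous recombination and Fanconi repair 6 were lower (14.6%) and 1 higher (2.44%, near the share of all genes), and the median was -0.50. The lower count was 1 without either FoxO1 pair, 2 without the RCC4 FoxO3 pair and 3 without the UMRC2 FoxO3 pair, and the higher count was 0 in each. The lower members included UBE2T, the ubiquitin-conjugating enzyme of the Fanconi pathway (-1.96), and RAD54L, which remodels recombination intermediates (-1.05).

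**Figure D3:**
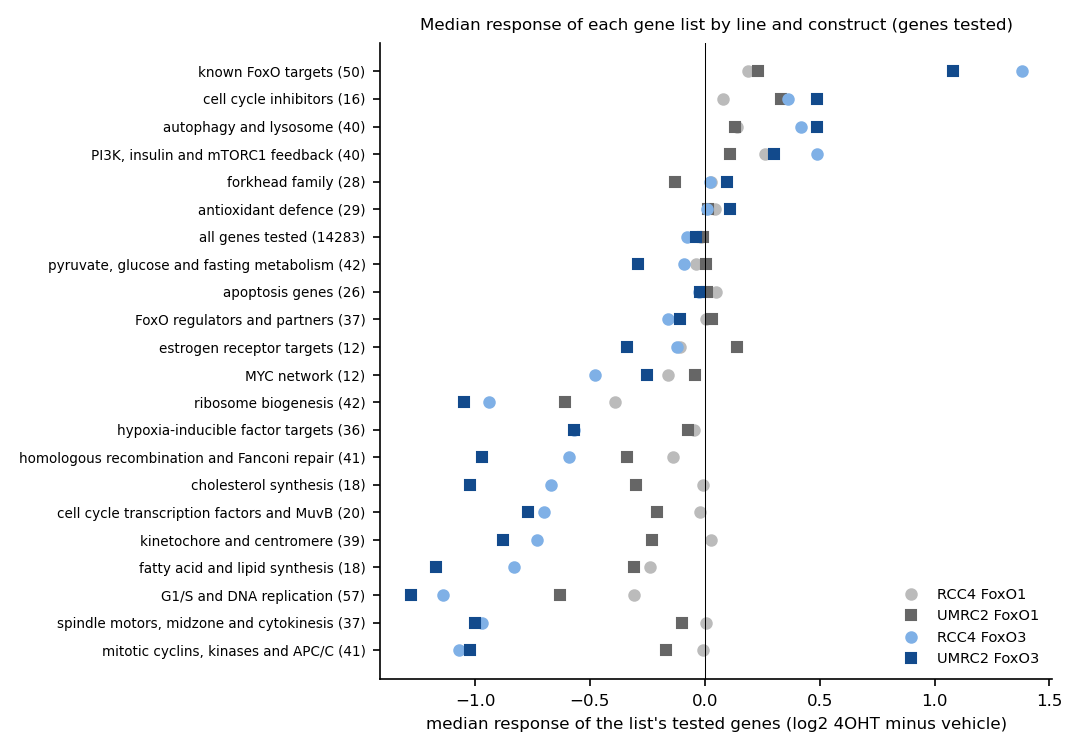
Median response (log2 4OHT minus vehicle) of the tested genes of each list in RCC4 FoxO1, UMRC2 FoxO1, RCC4 FoxO3 and UMRC2 FoxO3, ordered by the median difference. The mitotic lists lie between -0.23 and 0.026 in the FoxO1 lines and between -1.07 and -0.73 in the FoxO3 lines, whereas known FoxO targets lie at 0.19 and 0.23 under FoxO1 and at 1.38 and 1.08 under FoxO3.

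Lipid synthesis genes were lower under FoxO3 in both lines by their medians. In RCC4 and UMRC2 the median differences were -0.50 and -0.69 for cholesterol and -0.54 and -0.85 for fatty acid genes. Of the members named below, however, only ACACA differed more in UMRC2, and the lines were not tested against each other. In the cholesterol pathway 6 of 18 genes were lower (33.3%) and 0 higher (median -0.54), with 1 lower without the RCC4 FoxO1 pair, and the median responses were -0.01 and -0.30 to FoxO1 and -0.67 and -1.02 to FoxO3. SQLE, the squalene epoxidase, stood at 12.35 and 12.18 in RCC4 FoxO1, 12.47 and 10.72 in RCC4 FoxO3, 12.75 and 12.34 in UMRC2 FoxO1, and 12.77 and 10.99 in UMRC2 FoxO3, again with the FoxO3 arrays under 4OHT below all others (difference -1.48 ± 0.14, adjusted p = 0.00745). MVD, a decarboxylase of the mevalonate pathway (-1.97), and INSIG1, the sterol-regulated brake on SREBP (-1.68), were lower too. IDI1 (-1.81) had 1 of 3 other bright probe sets of the opposite sign. Of 18 fatty acid and lipid synthesis genes 5 were lower (27.8%) and 0 higher (median -0.72), with 0 lower without the RCC4 FoxO1 pair. Among them were ELOVL5, a fatty acid elongase (-1.24), and ACACA, which makes malonyl-CoA (-2.37). The 3 other bright probe sets of ELOVL5 gave only -0.20 to 0.25, and the other bright probe set of ACACA gave 0.50. Both calls thus rest on 1 probe set. SREBF1, the regulator of these genes, differed by -3.76 in RCC4 and -1.13 in UMRC2 and did not pass (adjusted p = 0.0618).

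Among targets of the hypoxia-inducible factors, which VHL-deficient cells keep active, 7 of 36 were lower (19.4%) and 2 higher (5.56%), and the median was -0.44. The median was -0.24 without the RCC4 FoxO3 pair, and 0 higher and 2 lower were called without the RCC4 FoxO1 pair against 3 and 12 without the UMRC2 FoxO3 pair. VEGFA, the endothelial growth factor, stood at 11.2 with vehicle and 10.92 with 4OHT in RCC4 FoxO1, 11.16 and 8.14 in RCC4 FoxO3, 12.41 and 11.48 in UMRC2 FoxO1, and 12.47 and 9.67 in UMRC2 FoxO3. Within each line the FoxO3 array with 4OHT was the lowest, and its difference was -2.30 ± 0.22 (adjusted p = 0.00815), with all 3 other probe sets between -1.46 and -0.98. PFKFB4, a regulator of glycolytic flux (-1.94), ENO2, the neuronal enolase (-1.80), and DDIT4, an inhibitor of mTORC1 (-1.52), were also lower. The 2 higher members were MXI1, a MYC antagonist (1.38), and PLOD2, a collagen lysyl hydroxylase. ENO2 responded by -0.05 and 0.60 to FoxO1 and by -1.79 and -1.26 to FoxO3. Of 42 genes of pyruvate, glucose and fasting metabolism 5 were lower (11.9%) and 1 higher (2.38%), with 1 and 3 lower on leaving out the RCC4 FoxO1 or the UMRC2 FoxO1 pair. The lower ones were the glycolytic genes ENO2, HK1, HK2, PFKFB4 and PFKP, while the list median was -0.066.

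Ribosome biogenesis genes had sizeable FoxO1 responses of their own. Of 42 tested, 9 were lower (21.4%) and 0 higher (median -0.39), with 0, 2 and 5 lower without the RCC4 FoxO1, the UMRC2 FoxO1 and the RCC4 FoxO3 pair. Their median responses were -0.39 and -0.61 to FoxO1 and -0.94 and -1.05 to FoxO3. POLR1B, of RNA polymerase I, responded by -1.13 and -1.30 to FoxO1 and by -3.12 and -2.48 to FoxO3 (difference -1.58, adjusted p = 0.0226), with other probe sets from -1.46 to -0.22, and NOP2, a ribosomal RNA methyltransferase, differed by -1.33. MYC, which drives many such genes, responded by -1.72 and -2.01 to FoxO1 and by -3.10 and -1.67 to FoxO3, so that its difference was -1.38 in RCC4 and 0.34 in UMRC2 and did not pass (adjusted p = 0.473).

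Known FoxO targets stood on the higher side. Of 50 tested, 14 (28.0%) were higher and 0 lower, against 2.17% of all genes on the higher side, with a median of 0.88. The count of 14 dropped to 2 when the RCC4 FoxO1 pair was left out and to 4 for the UMRC2 FoxO1 pair, and was 7 without the RCC4 FoxO3 pair, 21 without the UMRC2 FoxO3 pair and 2 with the values as deposited, and the median stayed between 0.65 and 1.14 over the pairs left out. PIK3IP1, a membrane protein that restrains PI3K, had log2 levels of 8 and 7.76 with vehicle and 4OHT in RCC4 FoxO1, 8.01 and 12.29 in RCC4 FoxO3, 8.3 and 9.24 in UMRC2 FoxO1, and 8.51 and 12.63 in UMRC2 FoxO3. The 2 FoxO3 arrays with 4OHT were far above the other 6, and the difference was 3.85 ± 0.42 (adjusted p = 0.00863), although 1 of 2 other probe sets gave -0.08. PDK4, the kinase that shuts off pyruvate dehydrogenase, was at the floor of 4.2 with both treatments in RCC4 FoxO1, at 4.72 and 10.06 in RCC4 FoxO3, at 7 and 7.39 in UMRC2 FoxO1, and at 7.14 and 10.28 in UMRC2 FoxO3. Its FoxO3 arrays with 4OHT alone exceeded 10, and the difference was 4.05 ± 0.83 (adjusted p = 0.0366). BCL6, a transcriptional repressor, responded by -0.58 and 0.76 to FoxO1 and by 2.07 and 2.16 to FoxO3 (difference 2.02), and PMAIP1, the BH3-only protein NOXA, differed by 1.49. Other known targets had positive responses to both isoforms and did not pass the test of the difference. TNFSF10, the death ligand TRAIL, responded by 3.17 and 1.54 to FoxO1 and by 4.41 and 1.78 to FoxO3 (adjusted p = 0.505), and CITED2, a transcriptional cofactor, by 2.23 and 1.26 and by 2.87 and 1.60 (adjusted p = 0.403).

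Feedback genes of PI3K signalling gave 5 higher (12.5%) and 2 lower (5.0%) of 40 (median 0.22). Without the RCC4 FoxO1 pair 1 higher and 1 lower were left, without the UMRC2 FoxO1 pair 1 and 2, without the RCC4 FoxO3 pair 2 and 1, and without the UMRC2 FoxO3 pair 9 and 3, and the median ran from 0.094 to 0.44. ERBB3, a receptor that couples to PI3K, went from 8.52 to 12.16 in RCC4 FoxO3 and from 7.89 to 9.51 in UMRC2 FoxO3, while FoxO1 cells changed from 8.19 to 9.44 and from 8.18 to 8.35. Its level with 4OHT was thus highest in FoxO3 cells within each line, and the difference was 1.92 ± 0.41 (adjusted p = 0.0409), with its other probe sets from 0.065 to 4.67. RICTOR, of mTORC2 (1.60), IGF1R, the receptor of insulin-like growth factors (0.90), and GAB1, a docking protein, were higher. TRIB3, a pseudokinase that inhibits AKT (-2.26), and DDIT4 were lower. The autophagy and lysosome list had 40 tested genes, of which 6 were higher (15.0%) and 0 lower (median 0.26). Of these calls 0 were made without either FoxO1 pair and 4 without the RCC4 FoxO3 pair, and the median was 0.0068 with the values as deposited. Among the higher members was GABARAPL1, of the autophagosome membrane, which responded by 0.21 and 0.65 to FoxO1 and by 1.88 and 2.57 to FoxO3 (difference 1.79). PIK3C3, the lipid kinase VPS34, differed by 1.25, with other probe sets from 0.035 to 0.81. The 16 tested inhibitors of the cell cycle gave 4 higher genes (25.0%) and 1 lower (6.25%), and 0 and 0 without the RCC4 FoxO1 pair or 1 and 0 without the UMRC2 FoxO1 pair. The median was 0.40, and 0.22 without the UMRC2 FoxO3 pair. CDKN1B, the p27 inhibitor, responded by 0.58 and 0.59 to FoxO1 and by 1.54 and 1.75 to FoxO3 (difference 1.06 ± 0.16, adjusted p = 0.0179). CCNG2, an unconventional cyclin of arrested cells, with FoxO1 responses of 0.68 and 0.98 and FoxO3 responses of 2.44 and 2.21 and with other probe sets from 0.024 to 1.62, and RBL2, the p130 pocket protein of the DREAM complex (1.20), were higher. The lower member was CDKN3, a phosphatase of cyclin-dependent kinases (-1.55). CDKN2D, the p19 inhibitor, responded by 1.34 and 1.10 to FoxO1 and by -0.02 and -0.16 to FoxO3, and its difference of -1.31 did not pass (adjusted p = 0.101).

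GTAAACA, a core FoxO motif, was in 14 of 265 windows (5.28%) of the higher genes, in 7 of 435 (1.61%) of the lower genes and in 2.51% of the windows of all genes tested. It was in 6 of 43 windows (14.0%) of the known targets and in 3.41% of all windows in the table, both strands counted. The insulin response form CAAAACAA was in 2.64%, 1.15% and 1.19% of windows of the higher genes, the lower genes and all genes tested. Most members thus had no match in this short window, which says only that these letters are not there. Stretches with a match are shown for 4 higher genes, because their match lies before the start site and their levels separate the isoforms, with the motif in capitals as GTAAACA or its reverse complement. They are BTG1, an antiproliferative factor (chr12:92145999-92146096, minus strand), CTSL, the lysosomal protease cathepsin L (chr9:87725917-87726023, plus), HBP1, a repressor of cell cycle genes (chr7:107168780-107168886, plus), and TMEM140, a membrane protein (chr7:135147916-135148022, plus).
BTG1: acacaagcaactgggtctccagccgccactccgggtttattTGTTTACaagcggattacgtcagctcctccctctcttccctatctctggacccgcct
CTSL: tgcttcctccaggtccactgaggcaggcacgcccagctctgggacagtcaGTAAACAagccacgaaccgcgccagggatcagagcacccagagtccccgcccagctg
HBP1: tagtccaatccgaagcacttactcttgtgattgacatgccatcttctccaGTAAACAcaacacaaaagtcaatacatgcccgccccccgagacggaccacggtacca
TMEM140: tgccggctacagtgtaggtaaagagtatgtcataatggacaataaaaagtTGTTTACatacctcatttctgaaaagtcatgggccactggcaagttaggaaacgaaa
BTG1 went from 11.07 to 12.86 in RCC4 FoxO1, from 10.87 to 13.86 in RCC4 FoxO3, from 11.87 to 13.03 in UMRC2 FoxO1 and from 11.84 to 13.89 in UMRC2 FoxO3. Its level with 4OHT was above that with vehicle in all 4 engineered lines, and most so in the FoxO3 cells of each line (difference 1.04, adjusted p = 0.0291). CTSL responded by -0.11 and 0.04 to FoxO1 and by 1.04 and 0.70 to FoxO3 (difference 0.90), HBP1 by 0.36 and -0.08 and by 1.52 and 1.27 (difference 1.26), and TMEM140 by 1.56 and 1.58 and by 4.25 and 2.95 (difference 2.02).

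Outside the lists, the higher genes with the largest smaller of their 2 single-line differences were SATB1, LRRC31, TPPP, LINC01664, TLR1, IFIT2, NEURL2, ABTB1, TMT1A and EMP1. SATB1, an organiser of chromatin loops, stood at 5.9 with vehicle and 4.5 with 4OHT in RCC4 FoxO1, 4.55 and 9.85 in RCC4 FoxO3, 4.27 and 4.2 in UMRC2 FoxO1, and 4.2 and 8.59 in UMRC2 FoxO3. The FoxO3 arrays with 4OHT were far above the other 6, of which 5 were near the floor and RCC4 FoxO1 with vehicle was not. Its difference was 5.58 ± 1.19 (adjusted p = 0.0401), with 2 arrays at the floor. IFIT2, an interferon-induced antiviral protein, gave 7.43 and 7.36, 7.46 and 11, 8.28 and 8.39, and 8.36 and 11.43 in the same order. Its level was flat under FoxO1 and high under FoxO3 with 4OHT in both lines (difference 3.27 ± 0.31, adjusted p = 0.00745), and its other probe set gave 3.82. TMT1A, a thiol methyltransferase, responded by -0.15 and -0.63 to FoxO1 and by 2.48 and 2.49 to FoxO3 (difference 2.87), but its other probe set gave 0.49. EMP1, an epithelial membrane protein, responded by -0.40 and 0.59 and by 3.09 and 3.18 (difference 3.04), with other probe sets at 1.33 and 1.88. TLR1, which pairs with TLR2 to sense bacterial lipopeptides, differed by 3.67, and NEURL2 (3.58), ABTB1 (2.82) and LINC01664 (3.48) differed by similar amounts. NEURL2 and LINC01664 were lower without 4OHT in FoxO3 than in FoxO1 cells of RCC4, by -1.89 and -2.43. NEURL2 was lower in UMRC2 as well, by -1.43. FoxO3 cells without 4OHT also differed from FoxO1 cells by -1.35 at SATB1 and 1.28 at ABTB1 in RCC4, and by -1.49 at LRRC31 in UMRC2. These differences thus start from unlike levels.

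The matching lower genes were EFNA3, PLCXD1, RITA1, NEURL1B, CALML4, LINC00857, SIX5, SAPCD2, NPRL2 and CBX2, beside CDC20 and E2F8. RITA1, a tubulin-binding regulator of Notch signalling, stood at 10.08 and 9.69 in RCC4 FoxO1, 10.18 and 6.54 in RCC4 FoxO3, 10.11 and 10.14 in UMRC2 FoxO1, and 10.28 and 7.41 in UMRC2 FoxO3. The FoxO3 arrays with 4OHT were far below the rest (difference -3.07 ± 0.28, adjusted p = 0.00745), and its other probe set gave -0.72. PLCXD1, related to phospholipase C, differed by -3.01 and its other probe set by -0.22. NEURL1B, a ubiquitin ligase for Notch ligands, responded by 0.73 and 0.32 to FoxO1 and by -2.31 and -2.43 to FoxO3 (difference -2.90). CBX2, a Polycomb subunit that reads histone methylation, responded by 0.10 and 0.07 and by -2.15 and -3.00 (difference -2.66), with other probe sets from -3.87 to -0.52. SIX5, a homeobox factor (-3.08), SAPCD2, which orients the spindle (-2.40), and NPRL2, a GATOR1 subunit that restrains mTORC1 (-2.38) were also called. EFNA3, an ephrin ligand, had the most negative difference of all called genes (-3.91 ± 0.60, adjusted p = 0.02), but RCC4 FoxO1 cells stood at 4.2 without 4OHT and RCC4 FoxO3 cells at 7.39, so its RCC4 value starts from unlike levels. In UMRC2, where the vehicle levels were 8.74 and 8.61, it went to 8.2 under FoxO1 and to 4.42 under FoxO3.

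**Figure D4:**
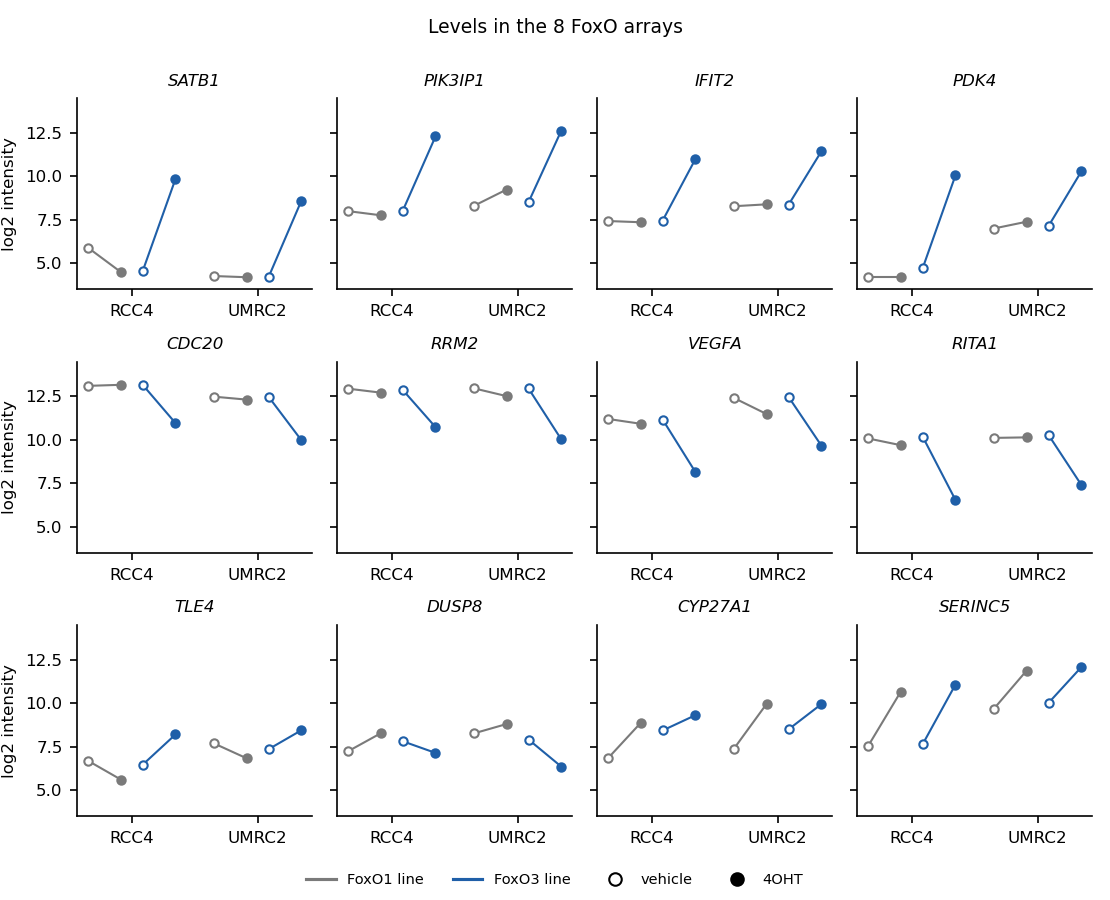
Log2 intensity of 12 genes in the 8 FoxO arrays, with a line from vehicle (open circle) to 4OHT (filled circle) for FoxO1 cells (grey) and FoxO3 cells (blue) of each line. SATB1, PIK3IP1, IFIT2 and PDK4 go up and CDC20, RRM2, VEGFA and RITA1 go down mainly in FoxO3 cells, TLE4 and DUSP8 go opposite ways, CYP27A1 rises further in FoxO1 cells, and SERINC5 rises alike.

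Genes whose 4 responses had the same sign were counted by which response was larger, with no test. A gene was counted where all 4 responses had the same sign and the FoxO3 response exceeded the FoxO1 response in size by at least log2 1 in both lines. There were 125 such genes with positive responses (0.875%), of which 86 were called, and 167 with negative responses (1.17%), of which 137 were called. Both FoxO1 responses were under 0.5 in size in 38 of the 125 (30.4%) and in 66 of the 167 (39.5%), so the class does not show a response to FoxO1 in each member. The reverse, a FoxO1 response larger by log2 1 in both lines, was found for 7 genes (0.049%), of which 0 were called. PAICS was just inside this limit for FoxO3 with a smaller single-line difference of 1, and HSDL2 just outside it with 0.998. TPPP, which promotes tubulin polymerisation, stood at 6.26 and 7.31 in RCC4 FoxO1, 6.86 and 12.96 in RCC4 FoxO3, 4.9 and 7.22 in UMRC2 FoxO1, and 5.49 and 11.34 in UMRC2 FoxO3. Its FoxO1 responses of 1.05 and 2.32 were smaller than the FoxO3 responses of 6.10 and 5.86 in both lines (difference 4.29 ± 0.55, adjusted p = 0.0123). DOCK8, an exchange factor for the GTPase CDC42, responded by 2.88 and 3.25 to FoxO1 and by 4.75 and 5.14 to FoxO3 (difference 1.88), with all 3 other probe sets of the same sign. ANKRD55, an ankyrin repeat protein (2.79), ATP9A, a phospholipid flippase (2.38), LOC374443 (2.10) and YPEL3, a growth suppressor (2.29), were called as well. Without 4OHT, FoxO3 cells of RCC4 differed from FoxO1 cells by 1.63 at YPEL3 and by -1.02 at ANKRD55. FILNC1, a FoxO-induced long noncoding RNA, responded by 4.10 and 1.16 to FoxO1 and by 6.06 and 4.67 to FoxO3, and did not pass (2.74, adjusted p = 0.0737), nor did FLJ13224, with 3 arrays at the floor. On the falling side CDCA7, a cell division gene that MYC and E2F drive, responded by -0.70 and -1.75 to FoxO1 and by -3.49 and -3.76 to FoxO3 (difference -2.40, adjusted p = 0.00839), and its other probe set gave -0.51. HDDC3 (-2.38), KLHDC7A (-2.73) and the antisense RNA PXN-AS1 (-2.26) were called, and GNB1L (-2.18) was not.

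The 7 genes with the larger FoxO1 response were LINC02355, CYP27A1 and FCN2 with positive responses and HBBP1, OR7A17, CLBA1 and POLM with negative ones. CYP27A1, the sterol 27-hydroxylase of bile acid synthesis, stood at 6.84 with vehicle and 8.88 with 4OHT in RCC4 FoxO1, 8.44 and 9.32 in RCC4 FoxO3, 7.38 and 9.97 in UMRC2 FoxO1, and 8.5 and 9.95 in UMRC2 FoxO3. The FoxO3 cells started higher in both lines, by 1.59 and 1.12, and the levels with 4OHT were close together. Its difference was -1.15 ± 0.28 (adjusted p = 0.0552), the nearest of the 7 to the threshold. The other 6 had adjusted p from 0.265 to 0.599 and at least 1 array below log2 5. FCN2, the lectin ficolin-2, also responded by 2.68 in UMRC2 EV cells, and LINC02355 by -1.63 and -2.50 in the EV cells. In RCC4 EV cells POLM responded by -1.79 and CLBA1 by -1.67, beside RCC4 FoxO1 responses of -2.53 and -1.99. Their UMRC2 EV responses were 0.75 and -0.35. POLM was just inside the limit (1.086) and PIP5KL1 just outside it (0.951). The class held 1 gene with the floor at the 30th percentile and 3 with no floor and 16 added to each value.

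In 35 genes (0.245%) the responses to the isoforms went in opposite directions, with a FoxO1 response of at least log2 0.5 one way and a FoxO3 response of at least 0.5 the other way in both lines. FoxO3 went up and FoxO1 down in 17 of them, of which 9 were called, and FoxO3 down and FoxO1 up in 18, of which 4 were called. The 13 called genes are named here after their values were seen. TLE4, a Groucho corepressor, stood at 6.7 with vehicle and 5.62 with 4OHT in RCC4 FoxO1, 6.47 and 8.21 in RCC4 FoxO3, 7.7 and 6.84 in UMRC2 FoxO1, and 7.36 and 8.45 in UMRC2 FoxO3. The arrays with 4OHT were the lowest in FoxO1 cells and the highest in FoxO3 cells of each line (difference 2.38 ± 0.50, adjusted p = 0.0384), and its other probe set gave 1.99. TLR6, a partner of TLR2, responded by -0.57 and -0.65 to FoxO1 and by 2.30 and 1.16 to FoxO3 (difference 2.34), and its other probe set gave 1.06. LRRC31, a leucine-rich repeat protein, responded by -1.10 and -2.03 and by 2.79 and 3.16 (difference 4.55), and ANO7, of the anoctamin family, by -1.19 and -1.22 and by 1.68 and 0.72 (difference 2.40). HBEGF, a ligand of the EGF receptor (2.08), ITPR2, a calcium channel of the endoplasmic reticulum (1.61), SSPN, of the dystrophin complex (2.32), CEP68, of the centrosome (1.45), and SPX, the peptide spexin (1.54), complete this side. Without 4OHT, FoxO3 cells of RCC4 and UMRC2 differed from FoxO1 cells by -1.01 and -0.54 at ANO7 and by -0.42 and -1.49 at LRRC31. These 2 genes thus start from unlike levels. SSPN in RCC4 FoxO1 (from 6.49) and LRRC31 in UMRC2 FoxO1 (from 6.24) ended at the floor of 4.2.

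On the other side DUSP8, a phosphatase of stress-activated kinases, gave 7.24 and 8.28, 7.82 and 7.15, 8.27 and 8.81, and 7.92 and 6.36 in RCC4 FoxO1, RCC4 FoxO3, UMRC2 FoxO1 and UMRC2 FoxO3. Within each line it was higher with 4OHT in FoxO1 cells and lower with 4OHT in FoxO3 cells (difference -1.91 ± 0.36, adjusted p = 0.0298). FAM110A, a centrosome-associated protein (-1.63), and EHBP1L1, an adaptor of membrane traffic (-1.29), had FoxO1 responses from 0.53 to 0.75 and FoxO3 responses from -1.14 to -0.53. RPP25, of ribonuclease P (-2.62), had another bright probe set at 0.25, so its direction depends on the probe set. KCNK10 was just inside the limit (0.511) and LINC01664 just outside it (0.496). Some of the genes that were not called also responded in EV cells, where FOXO4 gave -1.39 in RCC4 and TAS1R2, a taste receptor, gave 1.28 and 1.98, beside FoxO1 responses of -2.13 and of 1.52 and 1.75. The class held 65 genes with no filter on dim probe sets, 20 where the array median had to be reached in 4 arrays and 19 when all probe sets of a gene were averaged.

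**Figure D5:**
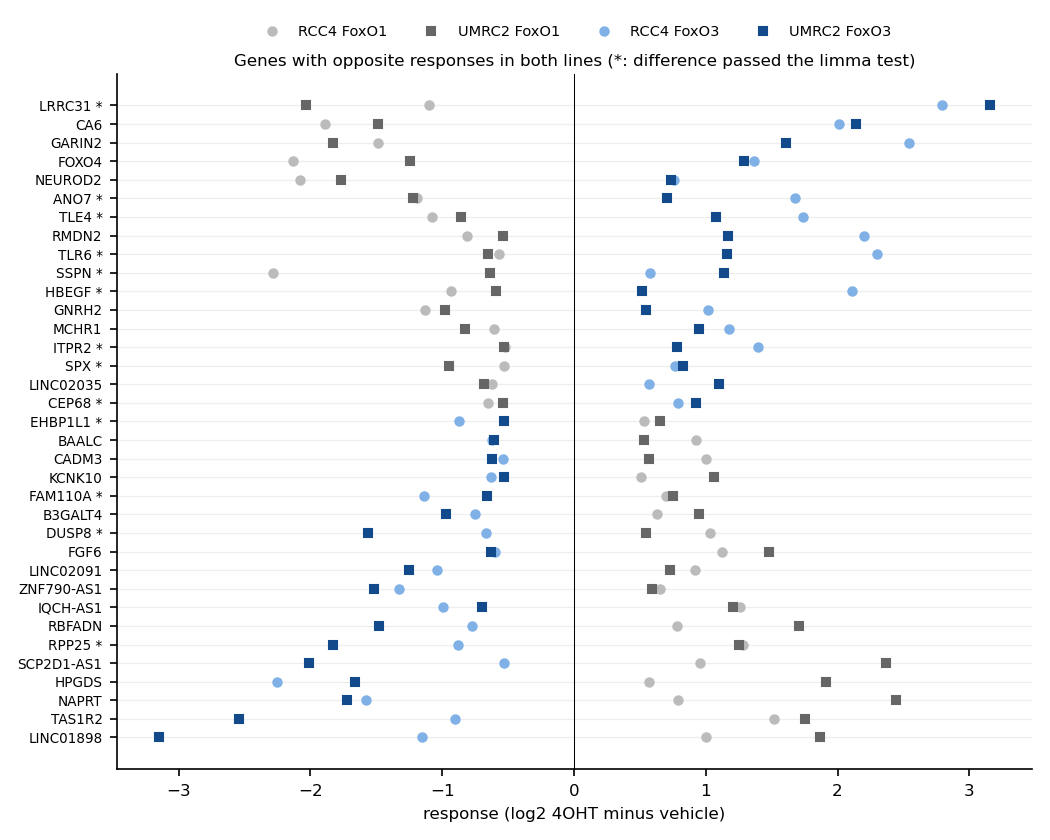
Response (log2 4OHT minus vehicle) of the 35 genes with opposite responses, in RCC4 FoxO1, UMRC2 FoxO1, RCC4 FoxO3 and UMRC2 FoxO3, ordered by the difference, with an asterisk for the 13 called genes. Both FoxO1 values and both FoxO3 values of each gene lie on opposite sides of 0 by the way the genes were chosen.

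Some genes responded to both isoforms by like amounts. All 4 responses were at least log2 1 in size with the same sign, and the 95% interval of the difference lay within log2 1 of 0, for 11 genes with positive and 7 with negative responses. SERINC5, an antiviral membrane protein, stood at 7.53 and 10.67 in RCC4 FoxO1, 7.65 and 11.08 in RCC4 FoxO3, 9.68 and 11.88 in UMRC2 FoxO1, and 10.02 and 12.08 in UMRC2 FoxO3. Every array with 4OHT was above every vehicle array, and the difference was 0.07 (interval -0.59 to 0.73). LGR4, a receptor of R-spondins, gave 0.04 (-0.55 to 0.64), RAPH1, the actin regulator lamellipodin, 0.30 (-0.23 to 0.83), NUPR1, a stress-induced nuclear protein, 0.34 (-0.31 to 0.98), and GXYLT2, a xylosyltransferase of Notch, 0.11 (-0.70 to 0.92). The other probe set of GXYLT2 gave 1.37, beyond the limit of this class, and those of RAPH1 gave 0.79 and 0.83. CLDN1, a tight junction protein, responded by 2.21 and 2.68 to FoxO1 and by 1.69 and 2.29 to FoxO3, and gave -0.45 (-0.94 to 0.05), while its other probe set gave 0.16. On the negative side IGFBP3, a binder of insulin-like growth factors, responded by -1.66 and -1.41 to FoxO1 and by -1.08 and -1.70 to FoxO3 (0.15, interval -0.32 to 0.61). PLAU, the urokinase (0.08, other probe set 0.69), HAS3, a hyaluronan synthase (-0.18), FHL2, a LIM domain cofactor (-0.26), EVA1A (-0.06) and TRABD2B, a Wnt protease (-0.09), belong to the same group, but the 2 other probe sets of TRABD2B gave -1.95 and -0.85. CCND1, cyclin D1, a known FoxO target that the series' design text names, went from 9.53 to 7.62 in RCC4 FoxO1, from 9.48 to 6.74 in RCC4 FoxO3, from 11.28 to 8.96 in UMRC2 FoxO1 and from 11.42 to 8.74 in UMRC2 FoxO3. It was lower with 4OHT in every line, and its difference was -0.59 (interval -1.16 to -0.03), which did not pass after adjustment (adjusted p = 0.211).

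The FoxO genes themselves were read by their own probe sets. FOXO1 went from 7.09 to 8.94 and from 7.43 to 8.3 in the FoxO3 cells of RCC4 and UMRC2 and from 6.5 to 6.93 and from 7.12 to 6.7 in the FoxO1 cells, and did not pass (1.36 ± 0.57, adjusted p = 0.217). FOXO3 responded by 0.78 in RCC4 FoxO3 cells and by -0.87 in UMRC2 FoxO3 cells, opposite signs beside a mean difference of 0.34 (adjusted p = 0.661). FOXO4 responded by -2.13 and -1.24 to FoxO1 and by 1.37 and 1.29 to FoxO3 at levels near the floor (adjusted p = 0.15), and FOXO6 differed by -0.56. FOXP1, another forkhead factor, responded by 1.81 and 1.13 to FoxO1 and by 3.38 and 1.89 to FoxO3 (adjusted p = 0.0791), with all 7 other probe sets of the same sign.

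Several lists held at most 3 called members, to be read against 2.17% higher and 3.64% lower among all genes. They were antioxidant defence (0 higher and 2 lower of 29, median -0.0025), apoptosis genes (1 and 2 of 26, median -0.08), FoxO regulators and partners (1 and 2 of 37, median -0.08), the MYC network (1 and 1 of 12, median -0.34), the forkhead family (0 and 1 of 28, median 0.055) and estrogen receptor targets (0 and 2 of 12, median -0.26). The 2 lower estrogen receptor targets are 16.7% of that list, 0 were left without the RCC4 FoxO1 pair, and its median was -0.063 without the UMRC2 FoxO1 pair. The median turned to 0.20 for the MYC network and to 0.042 for the FoxO regulators without the RCC4 FoxO3 pair, and to -0.11 for the forkhead family without the UMRC2 FoxO1 pair, so these 3 have no settled direction. Of these, MAPK8, the stress kinase JNK1 that activates FoxO factors, was higher (1.13), and CDK1, which phosphorylates them, was lower (-1.16). BID, which relays death receptor signals to mitochondria (-1.11), and TNFRSF10A, a TRAIL receptor (-1.57), were lower. GPX8, an endoplasmic reticulum peroxidase, was lower (-1.41), and the selenium carrier SELENOP differed by 4.89 in RCC4 and 1.52 in UMRC2 and did not pass (adjusted p = 0.131). Among estrogen receptor targets, RARA, the retinoic acid receptor (-2.40, other probe sets -2.20 to -0.89), and XBP1, a factor of the unfolded protein response (-1.01), were lower.

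The FoxO3 response of RCC4 was also set beside the FoxO1 response of UMRC2, the cells of unlike isoform whose fusion transcript differed least (0.4, higher in RCC4 FoxO3). This comparison crosses cell lines, has 1 response on each side and has no test. It does not separate isoform from fusion level, for the genes that keep their size here or for those that do not. All 310 higher genes had the larger value in RCC4 FoxO3 (median 1.20, 196 of them by at least log2 1), and all 520 lower genes had the smaller value there (median -1.01, 265 by at least log2 1). The difference that chose these genes is also the mean of this value and its counterpart, UMRC2 FoxO3 minus RCC4 FoxO1. Their signs here were thus largely fixed by that choice and lend it no support. Over all genes tested the median was -0.08. CDC20 gave -2.03 in this comparison, PIK3IP1 3.34, IFIT2 3.42 and VEGFA -2.09, against differences within lines of -2.29, 3.85, 3.27 and -2.30. Other called genes were much closer together here, with INSIG1 at -0.33 (within lines -1.68), DDIT4 at -0.64 (-1.52), MYBL1 at -0.79 (-1.81) and ACACA at -1.11 (-2.37). The genes with like responses gave medians of -0.42 on the positive and 0.48 on the negative side. CYP27A1 gave -1.71 and SERINC5 1.22. In all values of this comparison cell line, isoform and fusion level cannot be told apart.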

How the data were processed

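Values came from the series' table of 54675 probe sets on 12 arrays, of which the 8 FoxO1 and FoxO3 arrays are compared here. The authors deposited linear intensity values, computed with MAS5 per the submitters' processing notes; its version and scaling are not given in the sources used here. Arrays were quantile normalised together, intensities below 18.4 (the 20th percentile) were set to that floor, and log2 was taken. Of the probe sets, 41097 had 1 gene symbol in the platform annotation, 1801 had several and 11777 none. Only those with 1 symbol were used, and the brightest probe set stood for each of 19775 genes. The 62 control probe sets were part of the scaling and floor and, like the rest, were dropped only where they lacked a single symbol. Symbols were updated through Entrez IDs. The 14283 genes at or above the array median (log2 6.67) in at least 2 of the 12 arrays were tested, so EV arrays also entered the scaling, floor, filter and probe set choice.

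Per gene, limma 3.58.1 in R 4.3.3 (trended prior, 2 residual and 5.44 prior degrees of freedom) was fitted to 6 responses with construct and cell line as terms, where EV responses bear on the estimate of spread and not on the FoxO difference itself, and p-values were adjusted by Benjamini-Hochberg over all tested genes. The script was tested on simulated data. No repeat cultures are labelled.

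The members, classes and gene lists were chosen with earlier results of these data known. Named genes were the 12 higher and 12 lower called genes with the largest smaller single-line difference, up to 8 per direction of each class, up to 6 like responses per direction, up to 4 per list by size, and ESR1, the FOXO genes and CCND1. Other list members, genes with a printed promoter and called genes of the opposite class are named beyond that rule, after their values were seen. Alternatives covered scaling, floor, filter, probe set choice, prior, EV use, thresholds and leaving out each pair of arrays.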

Additional observations from a re-analysis of the deposited data

Results flagged for a closer look

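Responses to FoxO1 and FoxO3 of opposite sign in both lines were found for 35 genes. The difference between isoforms was at least log2 1 in both lines but of opposite sign for 234 genes, so that the isoform with the larger value depended on the line, and 169 of these had no array at the floor. TRIB2, a pseudokinase, is an example chosen after its values were seen. Its FoxO3 minus FoxO1 difference was 2.49 in RCC4 and -1.50 in UMRC2, and 2 arrays were at the floor. The difference between the lines was not tested in any of these cases.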

How the results depend on the processing

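Counts are given in the order called, higher, lower, larger FoxO3, larger FoxO1 and opposite, against 830, 310, 520, 292, 7 and 35. With the values as deposited the first 4 counts were 46, 14, 32 and 182. With no filter on dim probe sets, and with a constant prior variance, limma called 0, 0 and 0 genes (3131 and 2494 at an unadjusted p under 0.05), and the unfiltered opposite class held 65. Averaging all probe sets of a gene gave 147, 30 and 117 calls and 19 opposite genes, and each probe set on its own gave classes of 439, 13 and 71. The larger FoxO1 class held 1 gene with the floor at the 30th percentile, 3 with no floor and 16 added, and 3 where the array median was required in 4 arrays, which left 20 opposite genes. Requiring log2 1 as well gave 335 lower genes, and an adjusted p under 0.10 gave 1634, 636 and 998. Class limits of 0.75 and 0.3 gave 577, 11 and 128 genes, and limits of 1.5 and 0.75 gave 73, 1 and 10. Over all ESR1 probe sets the fusion differed by 1.92 in RCC4 and 0.86 in UMRC2.

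Leaving out each pair of arrays gave 37 to 1025 called, 7 to 407 higher and 30 to 618 lower genes. With no EV array at any step, an alternative chosen after seeing the data, 1000 genes were called. No replicate numbers are in the labels, so no pairing by number exists, and without a replicate block, here the cell line term, 653 genes were called (230 higher, 423 lower). All 830 called genes kept their sign in the scaling, fit and leave-one-out settings, which their choice on the same arrays largely fixes.

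Some differences changed sign, most of them near 0, but also RPP25 (-2.62), TFF3 (-1.59), MGA (-0.79) and CA12 (-0.68), of which RPP25 was called. With the values as deposited, GXYLT2 gave -0.046, IGFBP3 -0.061, LGR4 -0.13, PLAU -0.097 and SERINC5 -0.061. RPP25 gave 0.34 with no floor, and with the mean of probe sets ESR1 gave 0.042 and HAS3 0.23. Over the pairs left out, the ranges were -1.53 to 0.18 for CA12, -0.46 to 0.13 for ESR1, -0.5 to 0.38 for EVA1A, -0.67 to 0.15 for FHL2, -0.41 to 1.09 for FOXO3, -0.34 to 0.56 for GXYLT2, -0.51 to 0.14 for HAS3, -0.24 to 0.53 for IGFBP3 and -0.29 to 0.37 for LGR4. They were -1.96 to 0.38 for MGA, -0.18 to 0.85 for NUPR1, -0.47 to 0.63 for PLAU, -0.29 to 0.43 for SERINC5, -3.18 to 0.002 for TFF3 and -0.4 to 0.22 for TRABD2B. The cause was not tested for any of these changes. Low signal limits genes near the floor, where a level is only an upper bound.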
